A study of Mus musculus with 6 samples.

Results

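The genes described here are the mouse collagens and the enzymes and helper proteins that process collagen. They were chosen by symbol: every gene named Col, a number, a and a number, together with Plod1 to Plod3, P4ha1 to P4ha3, Lox, Loxl1 to Loxl4, Serpinh1, Pcolce and Bmp1. The table listed 58 such genes, 44 collagens and 14 processing genes, among 35976 rows. A minimum of 10 normalized counts in at least 2 of the 6 libraries left 43 of them, 29 collagens and all 14 processing genes, among 14211 genes tested. The 15 below the minimum, with no value above 11.4 in any library, were Col2a1, Col4a3, Col4a4, Col6a4, Col6a5, Col6a6, Col9a1, Col9a2, Col10a1, Col13a1, Col17a1, Col19a1, Col22a1, Col25a1 and Col26a1.

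Collagens are made of 3 chains wound into a triple helix, and chains of 1 type come from 1 gene or from several. In the endoplasmic reticulum, prolyl 4-hydroxylases (P4ha) and lysyl hydroxylases (Plod) modify the chains and the chaperone Hsp47 (Serpinh1) holds the helix together. After secretion, Bmp1 removes the C-terminal propeptide with the help of its enhancer Pcolce, and lysyl oxidases (Lox, Loxl) crosslink the fibres. Fibrillar collagens form the cables of the matrix, type IV forms the basement membrane that surrounds each adipocyte, and type VI forms beaded filaments that are abundant in fat tissue.

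The series measured poly(A) RNA of primary mouse adipocytes whose Ppargc1a gene, encoding the coactivator PGC-1alpha, is flanked by loxP sites on both alleles in every group, controls included. Cells received adenovirus carrying Gfp or Cre, then control siRNA or siRNA against Rbm43, which encodes an RNA-binding protein, and were then fully differentiated. The 3 groups held 2 libraries each: GFP virus with control siRNA (the controls), and Rbm43 siRNA after either GFP virus or Cre virus. Cre virus with control siRNA was not analysed here, and an adenovirus acts on whichever cells of the culture it enters. The labels call the libraries biological duplicates without saying whether they came from separate animals. The p-values therefore measure the spread between these libraries, which may be technical. For each gene that spread was estimated in part from other genes of like abundance.

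Each library had between 15775398 and 21961724 reads in genes, so that a single read came to 0.878 to 1.22 normalized counts. Rbm43 measured 185 and 224 normalized counts in the controls. With its siRNA it measured 43.7 and 46.6 after GFP virus, then 53.8 and 32.5 after Cre virus. Ppargc1a measured 163 and 202, then 399 and 423, then 463 and 469 in the same group order. A count over the whole gene does not check the excision of its floxed part. The adipocyte marker list (10 of 10 genes tested, with Adipoq, Fabp4 and Plin1) summed to between 274338 and 369836 normalized counts per library. The cultures also carried mural and smooth muscle markers (9 of 9, Acta2 and Myh11 included, 52974 to 75923 in sum) and fibroblast markers (12 of 13, 113245 to 136214). Such sums follow the most abundant genes of a list. In the mural list Acta2 averaged 37177 and Tagln 19968 over the 6 libraries, while Rgs5 averaged 25.6 and Myocd 41.9. Endothelial (279 to 391), macrophage (1365 to 1657), mesothelial (349 to 460) and chondrocyte markers (416 to 534, with Matn1 at 0) were low. In such bulk RNA, fewer cells of a type and less RNA per cell cannot be told apart.

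Collagen mRNAs are a textbook target of the microRNA miR-29, whose members share a single seed, the bases 2 to 8 that pair with a target. The mature sequences from RefSeq (GRCm38.p6) are shown because the complement of that seed recurs across the members, with the seed in capitals.
mmu-miR-29a-3p: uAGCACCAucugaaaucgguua
mmu-miR-29b-3p: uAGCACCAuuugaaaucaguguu
mmu-miR-29c-3p: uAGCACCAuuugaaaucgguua

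The complement of the seed, TGGTGCT, occurred in the 3′ UTR of 22 of the 42 members with a UTR on their principal transcript, or 52.4%. It occurred in 14.7% of the 12558 tested genes with an annotated UTR. The median UTR was of like length, 1.01 kb for members and 1.05 kb for all tested genes. Of the members, 8 held 2 or more matches, and Col5a1 held 4. The windows shown next are those of the member with the most matches, of the 4 members with a match whose log2 fold change with Rbm43 siRNA was furthest from 0 (Col27a1, Col15a1, Col11a1 and Col8a1), and of 2 of the most abundant fibrillar chains. Each is 29 bases of the mm10 sense strand from the GENCODE M21 principal transcript, with the match in capitals.
Col5a1, match 1, chr2:28037993-28038021, plus strand: ctatgaacattTGGTGCTgaattttttac
Col5a1, match 2, chr2:28038023-28038051, plus strand: cttgtctcttgTGGTGCTatgtgtccgga
Col5a1, match 3, chr2:28038339-28038367, plus strand: ctgaatgtttgTGGTGCTaatctctgtgt
Col5a1, match 4, chr2:28038711-28038739, plus strand: gagagtcactcTGGTGCTtgtgtccccac
Col27a1, chr4:63333909-63333937, plus strand: tgtgaaatcgcTGGTGCTcacaattgtct
Col15a1, chr4:47312489-47312517, plus strand: aatccacatatTGGTGCTagattctgcag
Col11a1, match 1, chr3:114219072-114219100, plus strand: ttggatttcgtTGGTGCTgtagaaaacaa
Col11a1, match 2, chr3:114219122-114219150, plus strand: catttaaaaaaTGGTGCTcattcccatcc
Col8a1, chr16:57624695-57624723, minus strand: atattctaccaTGGTGCTaatatcagagc
Col1a1, chr11:94952527-94952555, plus strand: gaaggaatttcTGGTGCTatagaagctga
Col3a1, chr1:45348971-45348999, plus strand: aaatgtctcaaTGGTGCTataataaataa

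The match was present in genes that rose, that fell and that passed no test. Among the 22 members with a match, 3 rose and 7 fell with Rbm43 siRNA, and their median log2 fold change was -0.11. Among the 20 members without one, 0 rose and 9 fell, with a median of -0.15. Col11a2, the tested member whose principal transcript gave no 3′ UTR, rose (0.48) and is in neither group. Its other transcripts were not searched. Over all tested genes with an annotated UTR, 10.4% of those with a match and 10.6% of those without one fell, and the medians were -0.0023 and -0.0078. The libraries hold no mature microRNA, so the level of miR-29 was not measured.

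Promoter windows from RefSeq (GRCm38.p6), 250 bases before to 50 after a start site, were found for 32 of the 43 members (34 windows). The GC box GGGCGG, searched on both strands, was in 25 of the 34 windows (73.5%) and in 35.7% of all 32851 windows. CCAAT was in 10 (29.4% against 37.4%) and TATAAA in 4 (11.8% against 13.6%), also on both strands and each counted on its own. The 32851 windows were not limited to genes tested here, while every member shown passed the minimum. The shares are therefore of unlike sets of genes, and shares among tested genes only were not computed. The windows of Col27a1, which rose most, and Col15a1, which fell most, are shown with motif matches on either strand in capitals. Both genes lie on chromosome 4.
Col27a1, chr4:63215162-63215461, plus strand: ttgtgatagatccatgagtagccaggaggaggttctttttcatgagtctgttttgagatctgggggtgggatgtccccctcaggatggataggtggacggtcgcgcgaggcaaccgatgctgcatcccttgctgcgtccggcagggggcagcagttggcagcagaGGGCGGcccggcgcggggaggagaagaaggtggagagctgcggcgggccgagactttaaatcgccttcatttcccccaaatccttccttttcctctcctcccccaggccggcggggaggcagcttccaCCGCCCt
Col15a1, chr4:47207762-47208061, plus strand: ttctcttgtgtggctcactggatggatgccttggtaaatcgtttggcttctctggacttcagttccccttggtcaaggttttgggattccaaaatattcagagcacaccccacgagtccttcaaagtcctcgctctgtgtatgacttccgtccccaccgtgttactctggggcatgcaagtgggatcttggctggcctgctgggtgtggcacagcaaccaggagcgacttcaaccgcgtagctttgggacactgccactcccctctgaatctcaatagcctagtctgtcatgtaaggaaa

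The Col27a1 window held 2 GC boxes and the Col15a1 window none of the 3 motifs. No match says only that these letters are not in that window. The windows follow RefSeq starts, which differ here from GENCODE M21. The Col27a1 window lies inside the GENCODE gene, which starts at 63214004, and the Col15a1 window ends before its GENCODE start at 47208161. Col4a1 and Col4a2, the chains of the common type IV collagen, lie head to head on opposite strands of chromosome 8, with start sites 21 bases apart and first bases that overlap. The 78 bases that their windows share are shown because they hold both starts, with the GC box in capitals.
Col4a1 and Col4a2, chr8:11312777-11312854, plus strand: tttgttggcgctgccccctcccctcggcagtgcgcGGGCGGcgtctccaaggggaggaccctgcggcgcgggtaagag

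Levels between genes were compared as normalized counts per kb of the principal transcript. The fibrillar chains Col3a1 (53167 per kb over the 6 libraries), Col1a1 (42361) and Col1a2 (36895) stood highest, and the crosslinking enzyme Lox (18063) and the chaperone Serpinh1 (14519) came next. The ranges of Col3a1 (50276 to 56992) and Col1a1 (38737 to 45851) did not overlap, while those of Col1a1 and Col1a2 (33806 to 41215) did. Col5a2 (12882), Col6a1 (10046), Col6a2 (7118) and Col5a1 (6191) followed, and type IV was led by Col4a1 (4942) and Col4a2 (3872). The fibrillar Col27a1 (99.2), Col24a1 (60.6) and Col11a2 (29.1) and the anchoring fibril chain Col7a1 (17.4) were far lower. Col4a6 (8.83), Col9a3 (5.09) and Col23a1 (4.30) closed the order, and the ranges of the last pair overlapped.

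**Figure D1:**
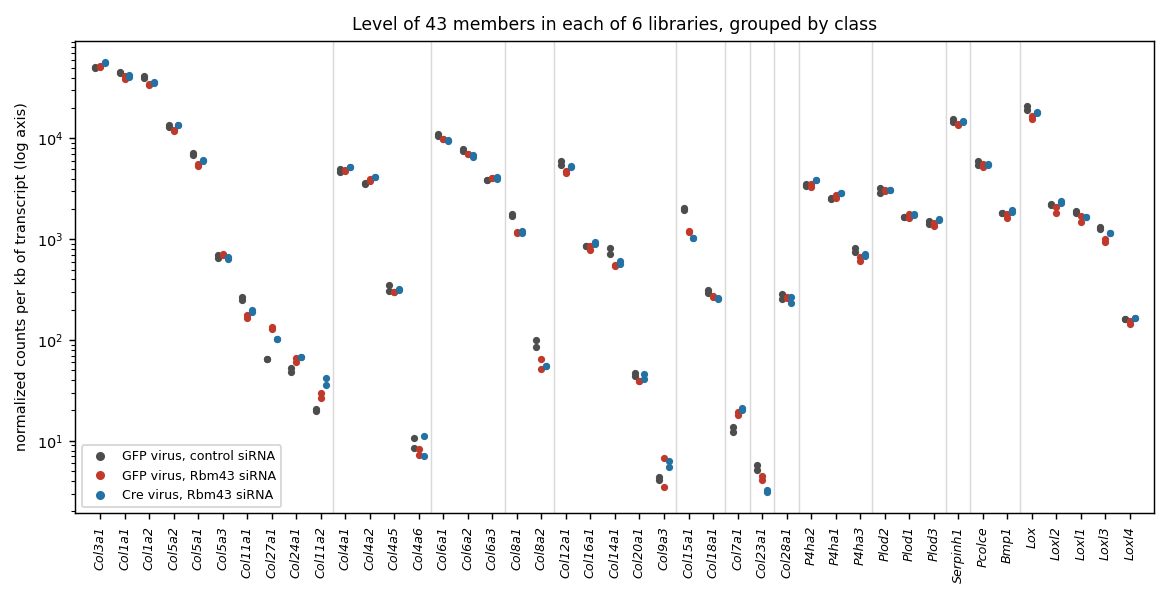
Normalized counts per kb of transcript (log axis) of the 43 members in each of the 6 libraries, grouped by class between grey lines, with 1 point per library and colours for the 3 groups. Col3a1, Col1a1 and Col1a2 lie near the top, Lox and Serpinh1 lead the processing genes, and Col4a6, Col9a3 and Col23a1 lie lowest.

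Rbm43 siRNA was compared with control siRNA in cells with GFP virus. Of the lysyl oxidases 4 of 5 were lower, as were the tested type VIII and multiplexin collagens and the fibrillar Col1a1, Col1a2, Col5a1 and Col11a1, and 4 collagens of low level were higher. Of the 43 members, 16 fell (37.2%) and 4 rose (9.30%) at an adjusted p under 0.05 by limma, where 9.76% of all genes tested fell, 13.5% rose and 23.2% were called in all. The median log2 fold change of the members was -0.12, and that of all tested genes -0.01. Both libraries with Rbm43 siRNA were below both control libraries for 26 members and above them for 9; over all genes tested these shares were 29.2% and 29.2%. A log2 fold change here is a difference of log2(normalized count + 1), which understates the change of low genes.

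**Figure D2:**
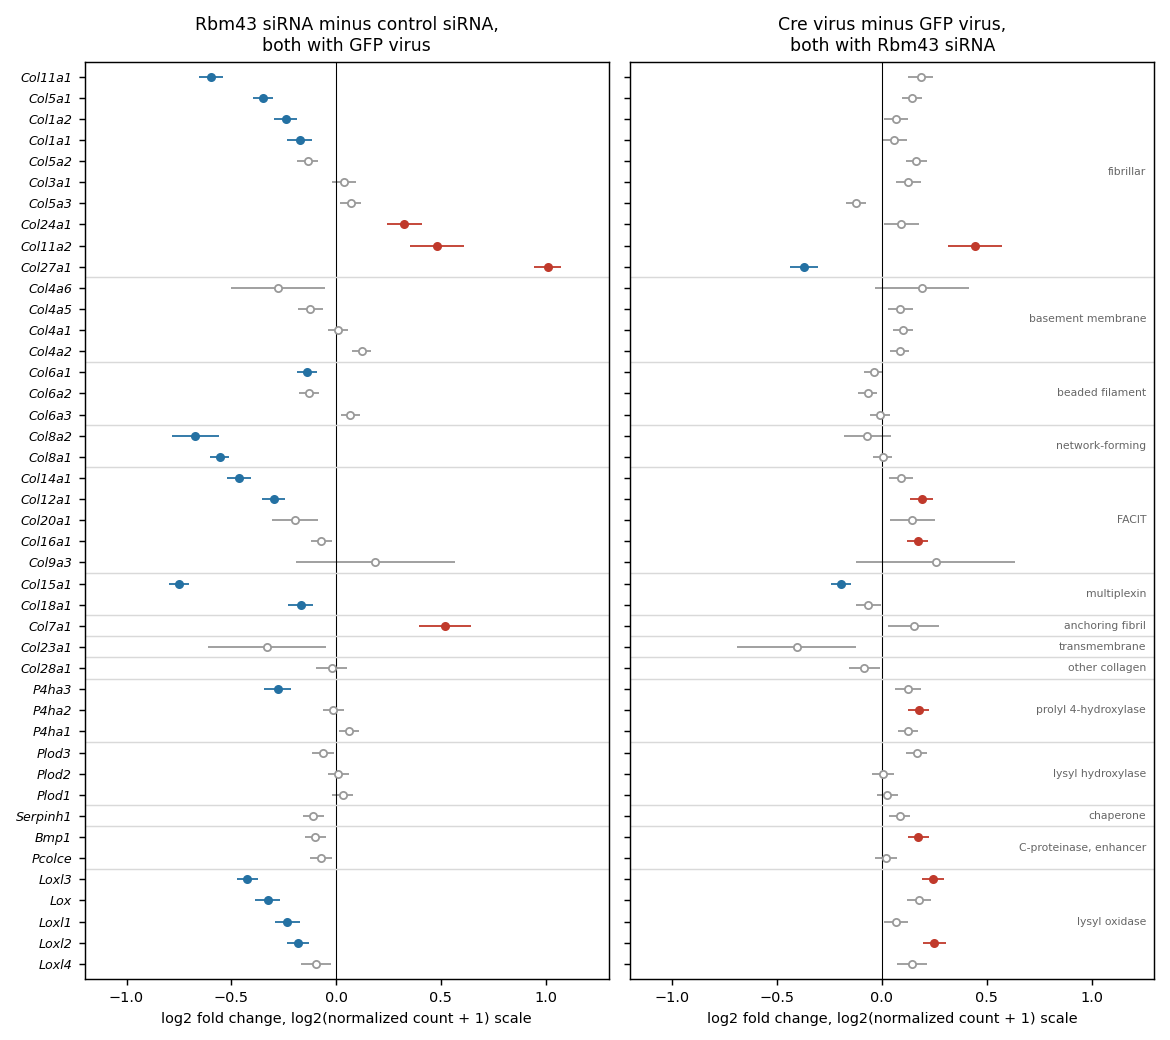
Log2 fold change of each of the 43 members (point) with its standard error (bar), by class, for Rbm43 siRNA minus control siRNA (left) and Cre virus minus GFP virus (right); red and blue filled points rose or fell at an adjusted p under 0.05 and open points were not called. On the left the points reach from -0.75 (Col15a1) to 1.01 (Col27a1), and on the right from -0.41 (Col23a1, not called) to 0.44 (Col11a2).

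Fibrillar collagens split in both directions, with 4 of 10 tested lower and 3 higher. Col27a1, a fibrillar collagen known from developing cartilage, measured 494 and 497 normalized counts in the control libraries and 971 and 1025 with Rbm43 siRNA. The groups were far apart: the log2 fold change was 1.01 (SE 0.07), a fold of 2.01, with an adjusted p of 3.7e-09. Col11a2, a chain of the type XI collagen that seeds fibrils, went from 111 and 107 to 145 and 161, a log2 fold change of 0.48 (SE 0.13, adjusted p = 0.010). Col24a1, a relative of Col27a1, went from 343 and 381 to 437 and 470 (0.32, SE 0.08, adjusted p = 0.0077). The calls of Col11a2 and Col24a1 were lost without the second library of GFP virus with Rbm43 siRNA and with DESeq2.

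Col11a1, another type XI chain, moved the opposite way to Col11a2. It measured 1916 and 2042 normalized counts in the controls and 1261 and 1357 with Rbm43 siRNA, and fell by 0.60 on the log2 scale (SE 0.06, adjusted p = 4.1e-07). Col5a1, a main chain of the type V collagen that limits fibril width, went from 58055 and 59664 to 47237 and 45247 and fell by 0.35 (SE 0.05, adjusted p = 2.9e-05). Both genes had all control libraries above all libraries with Rbm43 siRNA. Its partner chain Col5a2 (85315 and 89491, then 80492 and 78536) did not pass the test, with a 95% interval of the log2 fold change from -0.24 to -0.03. The third type V chain, Col5a3, had an interval from -0.03 to 0.18.

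Type I collagen, the main protein of connective tissue, was lower and type III was not called. Col1a2 measured 212961 and 220420 normalized counts in the controls and 185859 and 180792 with Rbm43 siRNA, and fell by 0.24 (SE 0.06, adjusted p = 0.0040). Col1a1 measured 271898 and 264558, then 246019 and 229709, and fell by 0.17 (SE 0.06, adjusted p = 0.044). Col3a1, which forms mixed fibrils with type I, measured 279733 and 284443, then 292633 and 286497, and its 95% interval ran from -0.09 to 0.16. The Col1a1 call did not hold in 9 of 17 alternative analyses.

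The proportions of chains shifted with these values. The ratio of Col3a1 to Col1a1 per kb was 1.10 and 1.15 in the controls, 1.27 and 1.33 with Rbm43 siRNA, and 1.33 and 1.39 with Cre virus and Rbm43 siRNA. Col5a1 to Col5a2 was 0.536 and 0.525, then 0.463 and 0.454, then 0.457 and 0.445. Col11a2 to Col11a1 was 0.0826 and 0.0745, then 0.163 and 0.169, then 0.186 and 0.213. In each of these ratios the control libraries lay apart from the other 4. The ratio of Col1a1 to Col1a2, whose products join in a single molecule, was 1.15 and 1.08, then 1.19 and 1.15, then 1.17 and 1.16. Its libraries overlapped between the controls and Rbm43 siRNA with GFP virus, and both controls lay below both Cre libraries. With 2 libraries per group an exact permutation test of a ratio cannot go below p = 0.3333, so none was run.

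Together the 44 collagen genes took 6.15% ± 0.09 (SD, n = 2) of all normalized counts in the controls, 5.53% ± 0.09 with Rbm43 siRNA and 5.97% ± 0.07 with Cre virus and Rbm43 siRNA. Within all collagen counts the fibrillar class took 77.6% to 78.5% over the 6 libraries, and Col3a1 alone went from 23.8% ± 0.01 to 26.7% ± 0.23 and 27.5% ± 0.41.

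**Figure D3:**
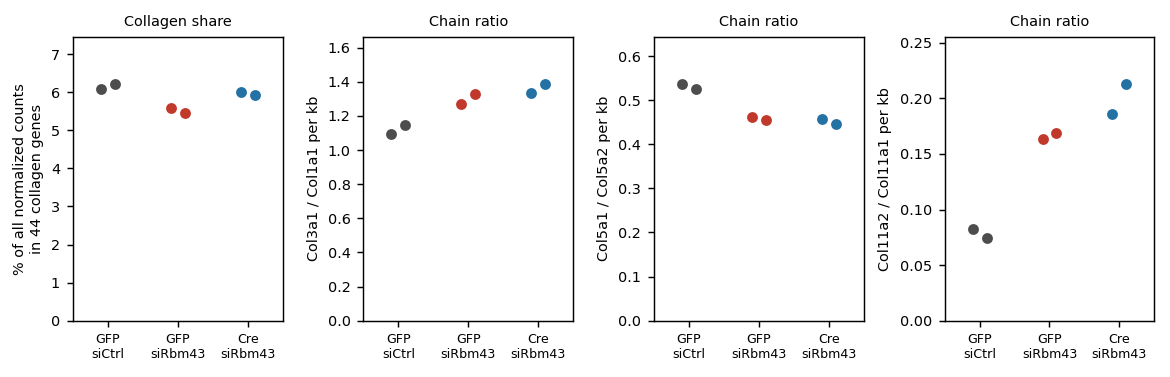
Share of all normalized counts in the 44 collagen genes (in %) and ratios between chains per kb of transcript, with 1 point per library and the 3 groups side by side (siCtrl, control siRNA; siRbm43, Rbm43 siRNA). The ratio of Col3a1 to Col1a1 lies between 1.10 and 1.15 in the controls and between 1.27 and 1.39 in the other 4 libraries.

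All 4 tested members of the network-forming and multiplexin classes fell. Col8a1, a short-chain collagen of vessel walls and remodelled matrix, measured 8620 and 9047 normalized counts in the controls and 6075 and 5942 with Rbm43 siRNA. It fell by 0.56 on the log2 scale (SE 0.05, adjusted p = 5.9e-08). Its partner Col8a2 went from 373 and 432 to 223 and 284 and fell by 0.67 (SE 0.11, adjusted p = 0.00018). Col15a1, a basement membrane-associated multiplexin, went from 10045 and 10541 to 6031 and 6211. It fell by 0.75 (SE 0.05, adjusted p = 1.9e-09), to a fold of 0.595, the lowest of all members in this comparison. Col18a1, the related multiplexin that carries endostatin, went from 1509 and 1406 to 1284 and 1308 and fell by 0.17 (SE 0.06, adjusted p = 0.044), a call that did not hold in 9 of 17 alternatives.

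The collagens that sit on fibrils, called FACIT, had 2 of 5 tested members lower and 0 higher (0 higher also at an unadjusted p under 0.05, with edgeR and with DESeq2). Col14a1 measured 4044 and 4622 normalized counts in the controls and 3099 and 3172 with Rbm43 siRNA, and fell by 0.46 (SE 0.06, adjusted p = 8.1e-06). Col12a1 measured 62279 and 68841, then 54468 and 52126, and fell by 0.30 (SE 0.06, adjusted p = 0.00048). Col16a1, Col20a1 and Col9a3 were not called.

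None of the 4 tested type IV chains was called by limma with its trend, where 1 of the 4, Col4a2, had an unadjusted p under 0.05. EdgeR called 1 of them and DESeq2 0. Of the pair that shares a promoter region, Col4a1 had a 95% interval from -0.09 to 0.11 and Col4a2 one from 0.03 to 0.22. Among the type VI chains, Col6a1 went from 44984 and 43484 to 40282 and 40148 and fell by 0.14 (SE 0.05, adjusted p = 0.042), with the call lost in 9 of 17 alternatives. Col6a2 (adjusted p = 0.052) and Col6a3 (adjusted p = 0.33) did not pass. Col6a3 lay higher with Rbm43 siRNA in both libraries, and the ratio of Col6a3 to Col6a1 per kb was 0.350 and 0.368 in the controls and 0.413 and 0.414 with Rbm43 siRNA. Col7a1, which anchors basement membranes to the matrix beneath, went from 113 and 127 to 180 and 165, a log2 fold change of 0.52 (SE 0.12, adjusted p = 0.0041). Without the first library of GFP virus with Rbm43 siRNA its adjusted p was 0.054. The transmembrane Col23a1, at 17.6 to 32.2 normalized counts, and Col28a1 were not called.

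Of the processing genes, 5 of 14 fell and 0 rose, and 4 of the 5 were lysyl oxidases. EdgeR and DESeq2 also had 5 lower and 0 higher, and at an unadjusted p under 0.05 6 were lower and 0 higher. Lox measured 90621 and 99900 normalized counts in the controls and 78608 and 73153 with Rbm43 siRNA, and fell by 0.33 (SE 0.06, adjusted p = 0.00032). Loxl3 went from 5458 and 5229 to 4144 and 3830 and fell by 0.42 (SE 0.05, adjusted p = 4.1e-06). Loxl1 (6258 and 6029, then 5649 and 4837) and Loxl2 (11553 and 11940, then 10988 and 9773) fell by 0.23 and 0.18, with adjusted p = 0.0069 and 0.019. The Loxl2 call did not hold in 6 of 17 alternative analyses, that of Loxl1 in 3 and that of Lox in 1. Loxl3 kept its call in all 17. In each of these 4 genes both Rbm43 siRNA libraries lay below both controls.

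Of the 7 tested genes that act inside the cell (P4ha, Plod and Serpinh1), P4ha3 alone was called. P4ha3, the least abundant of the prolyl 4-hydroxylase catalytic subunits, went from 1910 and 1755 to 1589 and 1432 and fell by 0.28 (SE 0.06, adjusted p = 0.0027). Its call and those of Loxl1 and Loxl2 were lost without the second library of GFP virus with Rbm43 siRNA. P4ha1 and P4ha2 were not called, with 95% intervals from -0.04 to 0.16 and from -0.12 to 0.09. The lysyl hydroxylases were not called either: the intervals were -0.07 to 0.14 for Plod1, -0.10 to 0.12 for Plod2 and -0.17 to 0.04 for Plod3. Serpinh1, Bmp1 and Pcolce did not pass (adjusted p = 0.13, 0.16 and 0.37).

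**Figure D4:**
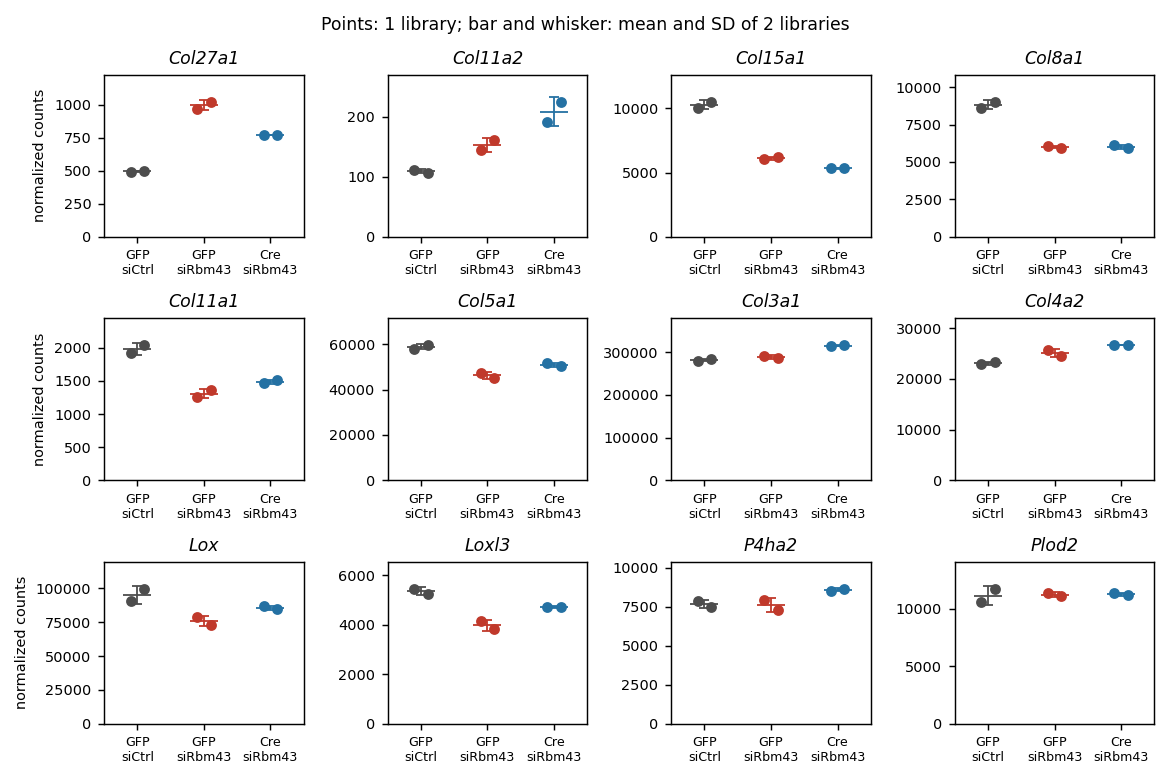
Normalized counts of 12 members in each library (points) with the mean and SD of 2 libraries per group (bar and whisker), for the controls (GFP, siCtrl) and for Rbm43 siRNA after GFP virus (GFP, siRbm43) or Cre virus (Cre, siRbm43). Col27a1 is higher and Col15a1, Col8a1, Col11a1 and Loxl3 are lower in all 4 libraries with Rbm43 siRNA than in the 2 controls.

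The genes around collagen were counted in 6 lists, to be read beside the 9.76% of all genes tested that fell and the 13.5% that rose. Among endoplasmic reticulum helpers 8 of 15 fell, with Hspa5, a general folding chaperone, at -0.42 and Fkbp10, a prolyl isomerase for collagen, at -0.24, and 1 rose (Tmem38b, an ion channel of that organelle, 0.34). Of the 12 secretion genes 6 fell, among them the COPII coat genes Sec23a (-0.18), Sec24d (-0.22) and Sar1a (-0.21), and 0 rose. In the propeptide and fibril assembly list 9 of 17 fell, led by Fmod, a proteoglycan that binds fibrils (-0.60), with Fn1 (-0.29), Postn (-0.31) and Thbs1 (-0.33), and 0 rose. Dcn and Lum stand in this list and in the fibroblast list. Breakdown and uptake had 4 of 17 lower and 1 higher, with the protease inhibitor Timp1 at -0.35. Collagen receptors had 2 of 10 lower, including the integrin chain Itga11 (-0.35), and 1 higher, Cd36 (0.23). The transforming growth factor beta pathway had 5 of 18 lower and 3 higher, with Smurf2 (-0.56) and Ltbp2 (-0.51) lowest. The rises among receptors (10%) and in this pathway (16.7%) were near the 13.5% of all genes.

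Cell type markers were counted in the same comparison. Whether cells other than adipocytes were present in the cultures was not tested. The fibroblast list summed to 132818 and 136214 normalized counts in the controls and 116863 and 113245 with Rbm43 siRNA, with 5 of 12 genes lower and 0 higher. Much of that sum was Fbn1 (52194 and 57267, then 44923 and 45417) and Vim (35705 and 35583, then 29356 and 27412). Pdgfra, Ly6a, Thy1, Cd34 and Dcn were not called. The adipocyte list summed to 291318 and 274338, then 361477 and 369836, with 7 of 10 genes higher and 1 lower (Adrb3, -0.69). Within that sum Fabp4 alone went from 137846 and 125493 to 191083 and 190516, and Adipoq and Lep were not called. The mural list summed to 58435 and 52974, then 63396 and 60672, with 4 of 9 higher and 0 lower. The macrophage list summed to 1562 and 1630, then 1598 and 1365, with 2 of 7 lower (Csf1r, -0.57, and Cd14, -0.56) and 0 higher. Endothelial, mesothelial and chondrocyte markers had 0 of 7, 0 of 3 and 0 of 1 called by limma, edgeR or DESeq2, and 0 at an unadjusted p under 0.05. Over all genes tested 9.76% fell and 13.5% rose. The part of these lists in the collagen values was not tested.

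Cre virus was compared with GFP virus in cells that all had Rbm43 siRNA. The changes were smaller, and most members lay higher with Cre. Of the 43 members 7 rose (16.3%) and 2 fell (4.65%), where 2.62% of all genes tested rose, 5.88% fell and 8.5% were called in all. The median log2 fold change was 0.09 for members and 0.00 for all tested genes. Both Cre libraries were above both GFP libraries for 25 members and below them for 7; over all genes tested these shares were 26.2% and 27.5%. The libraries of GFP virus with Rbm43 siRNA also entered the comparison before, so the values stand side by side and are not independent.

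The calls rested on few libraries. Leaving out either Cre library, or the second library of GFP virus with Rbm43 siRNA, left 1 called member, Col27a1. Limma without the trend called 0 members and 0 genes, with 10 members and 2355 genes at an unadjusted p under 0.05. EdgeR called 13 members and 1336 genes, and DESeq2 11 members and 838 genes.

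Col27a1 and Col15a1 fell with Cre virus. Col27a1 went from 971 and 1025 normalized counts to 770 and 772 and fell by 0.37 on the log2 scale (SE 0.07, adjusted p = 0.0012). It stayed above the 494 and 497 of the control siRNA libraries. Col15a1 went from 6031 and 6211 to 5371 and 5323 and fell by 0.20 (SE 0.05, adjusted p = 0.011), further from its control values. Col11a2 rose from 145 and 161 to 192 and 226 (0.44, SE 0.13, adjusted p = 0.037), also further from the controls.

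Other members rose by less than 0.3 on the log2 scale. The FACIT collagens Col12a1 (54468 and 52126, then 61460 and 60175) and Col16a1 (4413 and 4064, then 4866 and 4667) rose by 0.19 and 0.17. The crosslinking enzymes Loxl2 (10988 and 9773, then 12070 and 12583) and Loxl3 (4144 and 3830, then 4699 and 4735) rose by 0.25 and 0.24, with adjusted p = 0.0049 and 0.0038. P4ha2 and Bmp1 each rose by 0.17 (adjusted p = 0.035 and 0.031). Lox (86912 and 84635 with Cre) was not called, with an interval from 0.06 to 0.30. Col8a1 was not called either, with an interval from -0.10 to 0.10.

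Around the members, the lists are to be read beside the 2.62% of all genes tested that rose and the 5.88% that fell. The transforming growth factor beta pathway had 6 of 18 genes higher and 0 lower. Among the 6 were the target gene Ctgf (0.57) and the ligand Tgfb3 (0.33). Breakdown and uptake had 5 of 17 higher and 0 lower, including Timp1 (0.35), Timp3 (0.24) and the membrane protease Mmp14 (0.19). Propeptide and fibril assembly had 2 of 17 higher, Thbs1 (0.31) and Fn1 (0.20), and endoplasmic reticulum helpers 1 of 15, Fkbp10 (0.19). Of the 12 secretion genes 0 were called by limma with its trend, by edgeR or by DESeq2, and 4 had an unadjusted p under 0.05. Of the 10 receptors 2 rose, Cd44 (0.48) and Itgb1 (0.20), and Cd36 fell (-0.30). The adipocyte list summed to 311722 and 313573 with Cre virus, with 6 of 10 lower and 0 higher. The mural list summed to 72548 and 75923, with 6 of 9 higher and 0 lower, and the fibroblast list to 122605 and 122415, with 0 of 12 called by limma, edgeR or DESeq2 and 4 higher at an unadjusted p under 0.05. Their part in the collagen values of this comparison was not tested.

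Cre virus with Rbm43 siRNA was last set against GFP virus with control siRNA, 2 groups that differ in both treatments. Of the 43 members 7 rose (16.3%) and 11 fell (25.6%), where 8.47% of all genes tested rose, 6.28% fell and 14.7% were called. The median was -0.05 for members and 0.00 for all tested genes. Both libraries lay above the controls for 17 members and below them for 17, against 27.4% and 27.2% of all genes.

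Col15a1 (10045 and 10541, then 5371 and 5323) stood lowest, at -0.94 (SE 0.05, adjusted p = 9.8e-11), a fold of 0.520. Col8a2 fell by 0.74, Col8a1 by 0.55, Col11a1 by 0.41, Col14a1 by 0.37, Col18a1 by 0.23, Col5a1 by 0.21, Col6a2 by 0.20, Loxl3 and Col6a1 by 0.18 and Col1a2 by 0.17. Col11a2 stood highest at 0.92 (SE 0.13, adjusted p = 4.8e-05), a fold of 1.90, ahead of Col7a1 (0.67), Col27a1 (0.64) and Col24a1 (0.42). The basement membrane chain Col4a2 rose by 0.21, from 22921 and 23290 to 26687 and 26648 (SE 0.05, adjusted p = 0.0044), and P4ha1 and P4ha2 by 0.19 and 0.16. Col3a1 measured 314522 and 317105 against 279733 and 284443 and did not pass (adjusted p = 0.072).

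The lysyl oxidases, of which 4 of 5 fell in the siRNA comparison, had 1 of 5 called here, Loxl3. Lox lay at 86912 and 84635 against 90621 and 99900, with no overlap of the libraries and an adjusted p of 0.093. Without either Cre library 9 members were called. Over all genes tested 8.47% rose and 6.28% fell. Among the other lists, the transforming growth factor beta pathway had 6 of 18 genes higher and 3 lower, and fibril assembly 1 of 17 higher and 5 lower. Endoplasmic reticulum helpers had 0 of 15 higher and 3 lower, and secretion 0 of 12 higher and 1 lower. Of the fibroblast markers 4 of 12 were lower and 0 higher, of the mural markers 7 of 9 higher and 0 lower, and of the adipocyte markers 3 of 10 higher and 3 lower.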

How the data were processed

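The deposited table holds counts per gene divided by a size factor per library, a signal the authors made with DESeq2 2.11.40.7 after fastp 0.23.2 and STAR 2.7.8 on mm10, per the submitters' processing notes. Not given in the sources used here were the counter, its annotation and its strand setting, so reads of overlapping genes on opposite strands may not be told apart. Divided by the value of a single read in its library, 100% of all values in each library were whole within 0.01 read.

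Members and lists were chosen with earlier results of these data known. Genes with at least 10 normalized counts in at least 2 libraries were tested with limma 3.58.1 (R 4.3.3) with its mean-variance trend on log2(normalized count + 1), fitting all 6 libraries together (3 residual degrees of freedom), Benjamini-Hochberg adjusted over 14211 genes, called at 0.05. The 3 comparisons share libraries. EdgeR 4.0.16 and DESeq2 1.42.0 were run on the recovered reads: for the siRNA comparison, the Cre comparison and both together, edgeR called 3263, 1336 and 2111 genes and DESeq2 2035, 838 and 1220. Every member was named by the symbol rule, and genes of other lists were named as examples after their values were seen. Lengths, UTRs and coordinates of members came from the GENCODE M21 principal transcript on mm10, and promoters and microRNAs from RefSeq. For genes that are no members, the 3′ UTR came from the best-ranked coding transcript that had one. Library duplicates differed by more than sampling noise (chi-square per degree of freedom 4.09, 2.74 and 1.76). The table had 27 date-like symbols and 4 rows with repeated symbols, none of them members.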

Additional observations from a re-analysis of the deposited data

How the results depend on the processing

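Each count was recomputed under 17 alternatives, and no called member changed sign in any of them. All calls were kept for Col27a1, Col15a1, Col8a1, Col11a1, Col5a1, Col14a1 and Loxl3 (7 of 20) with Rbm43 siRNA, for 0 of 9 with Cre virus and for Col27a1, Col15a1, Col8a1, Col11a2 and Col7a1 (5 of 18) in the third comparison. With Rbm43 siRNA, limma without the trend called 8 members (2 rose, 6 fell), DESeq2 called 2 that rose, and leaving out 1 library gave 12 to 24 called, 2 to 5 that rose and 10 to 19 that fell. The lowest came without the second library of GFP virus with Rbm43 siRNA. With Cre virus, no minimum left 2 members (1 rose, 1 fell), scaling to the same total gave 15 (13 rose), fitting only the 2 groups gave 16 (13 rose), limma without the trend gave 0 (0 rose, 0 fell, 10 at an unadjusted p under 0.05), and edgeR had 11 that rose. Leaving out 1 library there gave 1 to 16 called, 0 to 13 that rose and 1 to 3 that fell. In the third comparison limma without the trend called 6 (3 rose, 3 fell), and leaving out 1 library gave 9 to 21 called, 4 to 8 that rose and 5 to 13 that fell. The cause was not tested.

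Over all genes, limma without the trend called 1304, 0 and 433 in the 3 comparisons, and without a minimum 2316, 609 and 1251. Replicate numbers did not pair the libraries (correlations of same-numbered deviations 0.02, -0.04 and -0.04). With a replicate block 18, 10 and 18 members were called against 20, 9 and 18 without it. The 3 least abundant members, Col23a1, Col9a3 and Col4a6, had standard errors of 0.22 to 0.38 in each comparison, the widest of all members. Col23a1 in the third comparison (log2 fold change -0.74) was called in 1 of 16 alternatives.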
